A study of Mus musculus with 6 samples.

Results

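Ribosome footprints on 10 genes of the mRNA decapping and decay machinery were examined in mouse oocytes: Dcp1a, Dcp1b, Dcp2, Edc3, Edc4, Xrn1, Lsm1, Upf1, Zfp36l2 and Zfp36l1. They were taken by symbol from a table of 22416 genes, all 10 were present, and all 10 passed the filter of a 1 FPKM minimum on the mean. Footprints are the stretches of mRNA that a ribosome shields from nuclease, and they were sequenced by Ribo-lite from 500 oocytes per library. FPKM gives reads scaled to the length of the coding sequence and to the reads of the library. The 6 libraries came from wild-type C57BL/6 females of 4 weeks, collected 44 h after 5 IU of PMSG, a gonadotropin that drives follicle growth. WT_FGO was the fully grown oocyte at the germinal vesicle (GV) stage, WT_MII the control oocyte matured in culture to metaphase II (MII), and Treat_MII the oocyte matured to MII under treatment, with 2 libraries in each group. The labels name the treatment only as "Treat", while the study's methods give BYBX, a small-molecule ligand of RNA G-quadruplexes (rG4s), and DMSO for the controls.

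An mRNA is usually destroyed after its poly(A) tail is shortened: the cap is cut off and the body is digested from the 5′ end. Dcp2 is the enzyme that removes the cap, Dcp1a and Dcp1b are paralogous activators of it, Edc3 and Edc4 hold the complex together, Lsm1 belongs to the ring that marks deadenylated 3′ ends, and Xrn1 digests the decapped body. Upf1 is the RNA helicase at the centre of nonsense-mediated decay, and Zfp36l2 and Zfp36l1 are zinc finger proteins that bind AU-rich elements in 3′-UTRs and bring in the deadenylase. The fully grown oocyte is transcriptionally silent and stores stable maternal mRNA, much of which is cleared during maturation, and decapping factors are known in the mouse as proteins made from dormant maternal mRNA. Such dormant mRNAs often carry cytoplasmic polyadenylation elements (CPEs) near the 3′ end, through which their tails are lengthened and their translation begins after meiotic resumption.

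Dcp1a was the member with the highest footprint level in mature oocytes, and the only one of the 10 whose transcript held a CPE sequence in its last 100 bases. The motifs searched were TTTTAT and TTTTAAT on the sense strand of the longest coding transcript. Both were present in Dcp1a, 61 and 36 bases before the annotated end. They are shown here because the results turn on this gene, with the motif in capitals (GRCm38, plus strand, annotated 3′-UTR of Dcp1a in GENCODE M21).
Dcp1a TTTTAT, chr14:30526985-30527014: tttcatcctaaaTTTTATatgtttgcaaat
Dcp1a TTTTAAT, chr14:30527009-30527038: gcaaatatatttTTTTAATaaaatttcaaa
The last bases of the second motif overlap AATAAA, the signal for cleavage and polyadenylation. Of 13608 tested genes with a 3′-UTR of at least 100 bases, 18.7% held either CPE motif in that window and 65.2% held AATAAA. The latter was found in 8 of the 10 members, all but Edc3 and Lsm1. A match describes the letters and is not a measured site.

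The libraries held 94309 and 107251 reads in WT_FGO, 164972 and 230907 in WT_MII, and 331304 and 275604 in Treat_MII. These are the reads that the deposited values imply, and for a coding sequence of 1 kb each read added between 3.02 and 10.6 FPKM. The reads on all 10 members together numbered 50 and 80 in the WT_FGO libraries, 621 and 845 in WT_MII, and 975 and 820 in Treat_MII. Dcp1a, Edc4, Upf1 and Xrn1 accounted for most of them, and the other 6 members had between 4 and 21 reads over all 6 libraries. All 10 oocyte markers were present in every group, with summed levels from 18507 to 42643 FPKM. Of 12 granulosa and cumulus cell markers, the sum was 128 and 1160 FPKM in the WT_FGO libraries, between 109 and 139 FPKM in WT_MII, and between 95.3 and 131 FPKM in Treat_MII, with 5, 3 and 5 markers at 0 in both libraries of the respective group. The second WT_FGO library thus held more of these transcripts, mainly Inha at 747 FPKM and Amh at 196 FPKM. The changes of Dcp1a, Edc4 and Upf1 on maturation and the counts of called list genes are also given without it. Those of single list genes are not, and Xrn2, for instance, had 0 reads in the first WT_FGO library and 4 in the second. Depth also rose from WT_FGO to WT_MII to Treat_MII, and its part in the results was not tested.

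Dcp1a, the decapping activator, carried few footprints before maturation and ranked among the most heavily occupied mRNAs after it. It lies on GRCm38 chromosome 14, 30479535 to 30527063, on the plus strand. Its level was 17.4 and 35.8 FPKM in the WT_FGO libraries, from 3 and 7 reads. It was 994 and 978 FPKM in WT_MII, from 299 and 412 reads. All MII libraries lay far above both fully grown libraries. In WT_MII the gene lay above 99.6% and 99.5% of all genes, against 77.4% and 85.0% in WT_FGO. The mean went from 26.6 ± 13.0 FPKM (SD, n = 2) to 986 ± 10.9 FPKM (SD, n = 2), a ratio of 37.0, and the increase was 5.24 ± 0.40 (SE) on the log2(FPKM + 1) scale with a limma adjusted p of 0.00242. It was number 161 of 15127 tested genes in order of the difference. The increase was 5.74 without the second WT_FGO library, where a single fully grown library is left, so only its size is given. Its call depended on the treated libraries that share the estimate of spread: with the same increase of 5.24, limma's adjusted p was 0.104 without either Treat_MII library. Of the 28-base words in its coding sequence, 7.58% occur in a transcript of another annotated gene. Footprints on an mRNA cannot tell more mRNA from more ribosomes per mRNA, and in pooled oocytes fewer cells of a type and less RNA per cell cannot be told apart.

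Dcp1b, the paralog of Dcp1a, was not called in any comparison. Its level was 36.7 and 10.8 FPKM in the WT_FGO libraries, 6.99 and 5.00 FPKM in the WT_MII libraries, and 10.4 and 6.28 FPKM in the Treat_MII libraries, from 21 reads in all. The WT_FGO values were above those of all 4 MII libraries, the lower of them narrowly. The difference of WT_MII from WT_FGO was -1.60 ± 0.86 (SE) on the log2 scale and did not pass the test (limma adjusted p = 0.362). Of the reads on the Dcp1a and Dcp1b pair, Dcp1a held 10 of 18 in WT_FGO, or 55.6% with an exact 95% binomial interval of 30.8% to 78.5%. It held 711 of 715 in WT_MII, or 99.4% (98.6% to 99.8%), and 691 of 700 in Treat_MII, or 98.7% (97.6% to 99.4%). Almost all footprints on the pair were thus on Dcp1a in MII oocytes. In fully grown oocytes the libraries went opposite ways, with 3 of 9 reads on Dcp1a in the first and 7 of 9 in the second. Such intervals cover counting error only and leave out PCR duplication and the spread between libraries.

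Dcp2, the decapping enzyme itself, was close to the limit of detection. Its level was 0 FPKM in both WT_FGO libraries, 9.28 and 0 FPKM in control MII oocytes, and 13.9 and 11.1 FPKM in treated ones. It was read in 1 of 2 control and 2 of 2 treated MII libraries, and in no fully grown library. A count of 0 allowed up to 24.3 and 21.4 FPKM in WT_FGO, above every level seen later, so no fold can be given. The limma adjusted p was 0.492 for WT_MII and 0.20 for Treat_MII against WT_FGO. The footprints on the activator Dcp1a and on the enzyme therefore differed by far in MII oocytes, at 986 and 4.64 FPKM in WT_MII, both per length of coding sequence.

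**Figure D1:**
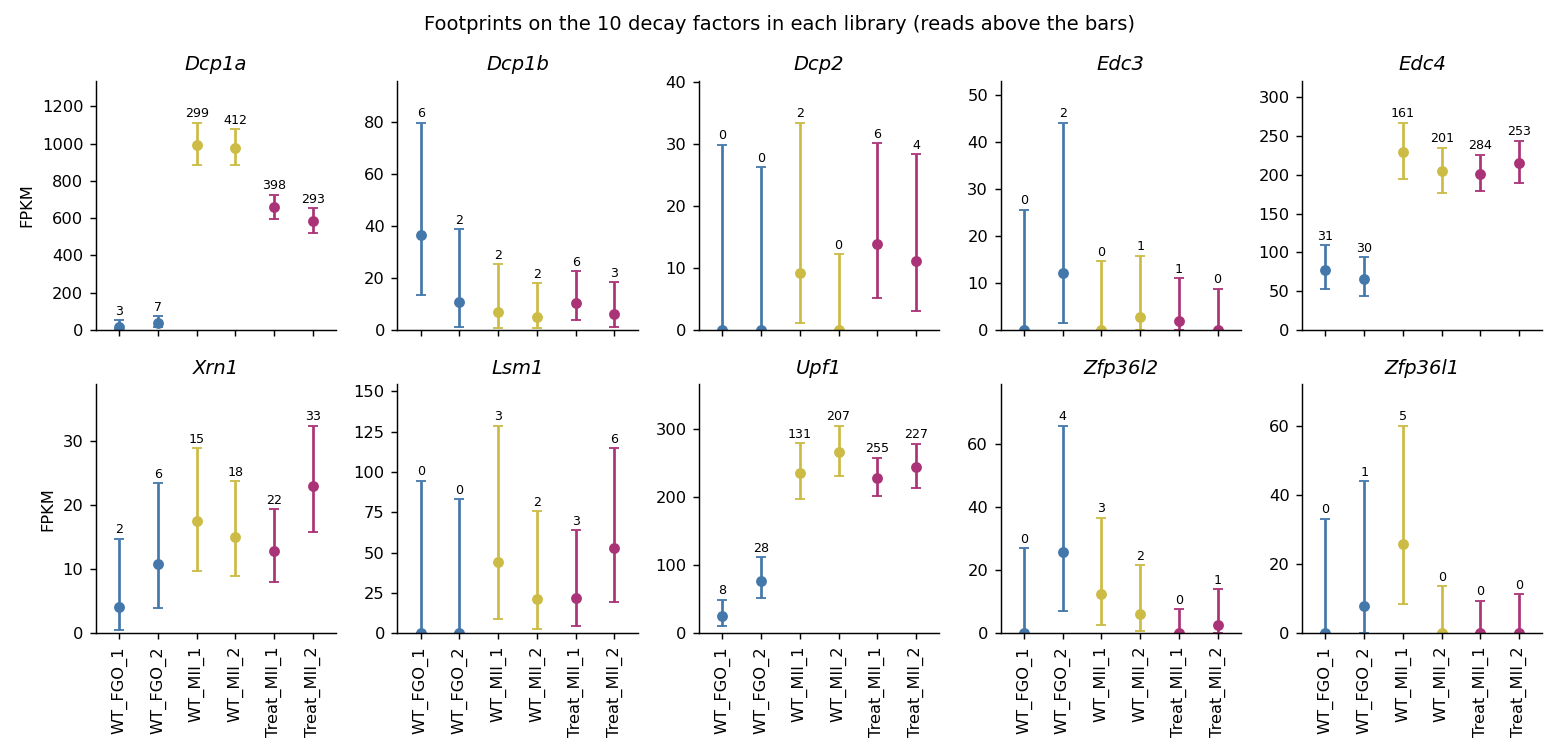
FPKM (y axis, linear from 0, with its own range in each panel) of the 10 decay factors in each of the 6 libraries (x axis). Points are single libraries, bars are 95% intervals of the read count (counting error only) and the numbers are reads; Dcp1a, Edc4 and Upf1 lie higher in all 4 MII libraries than in both WT_FGO libraries, and 6 genes rest on 21 reads or fewer.

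Of the scaffold proteins of the complex, Edc4 rose on maturation and Edc3 was barely read. Edc4 (chromosome 8, 105880881 to 105894908, plus strand) had the highest mean level of the members in fully grown oocytes, although Upf1 lay above it in the second WT_FGO library. Its level was 77.2 and 65.7 FPKM in fully grown oocytes, 229 and 204 FPKM in control MII oocytes, and 201 and 216 FPKM in treated MII oocytes. The 4 MII libraries lay close together and above both WT_FGO libraries. The mean ratio of WT_MII to WT_FGO was 3.03, and the rise was 1.59 ± 0.32 (SE) on the log2 scale (limma adjusted p = 0.0434). The call was lost without either WT_MII library and without either Treat_MII library. The rise was 1.48 without the second WT_FGO library, where a single fully grown library is left, so the call there is no support. Edc3 had 4 reads in all, with 0 and 12.2 FPKM in the WT_FGO libraries, 0 and 2.84 FPKM in the WT_MII libraries, and 1.98 and 0 FPKM in the Treat_MII libraries, and the groups overlapped.

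Within a library, the ratio of Dcp1a to Edc4 does not depend on the library total. The ratio of their FPKM was 0.226 and 0.545 in fully grown, 4.33 and 4.78 in control MII, and 3.27 and 2.70 in treated MII oocytes. By these values Edc4 was the more occupied of the pair before maturation and Dcp1a after it, and the treated libraries lay between the other groups. The order before maturation rests on 3 and 7 reads of Dcp1a. In the second WT_FGO library the counting intervals overlapped (14.4 to 73.7 FPKM for Dcp1a, 44.3 to 93.8 FPKM for Edc4). The ratio of Upf1 to Edc4 was 0.326 and 1.18 in fully grown oocytes, between 1.03 and 1.30 in WT_MII, and 1.13 in both Treat_MII libraries. A treated value between the other groups was not particular to these genes. Among the oocyte markers, Zp1, Zp2, Zp3, Gdf9, Bmp15, Nlrp5, Zar1 and Padi6 also had treated levels between those of WT_FGO and WT_MII. Ddx4 and Oosp1 did not.

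Of the factors that act after or beside decapping, Upf1 had the higher footprint levels. Upf1 (chromosome 8, 70331525 to 70353278, minus strand) stood at 25.2 and 77.4 FPKM in fully grown oocytes, 235 and 266 FPKM in control MII oocytes, and 228 and 244 FPKM in treated MII oocytes. All MII libraries were above both fully grown ones, which stood further apart from each other than the MII libraries did. The mean ratio was 4.89, and the difference of 2.47 ± 0.56 (SE) on the log2 scale missed the limma threshold (adjusted p = 0.0563). voom, which weights the recovered reads by their precision, called it (limma-voom adjusted p = 4.28e-06). The voom fit pooled the spread over all genes, so the distance between the WT_FGO libraries of Upf1 itself had no weight in that call. On leaving out 1 library the limma adjusted p ran from 0.00622 to 0.244. It was under the threshold without the first WT_FGO library (1.68, limma adjusted p = 0.0232) or the second (3.26, 0.00622), where a single fully grown library is left and the MII groups alone supply the spread, so this is no support for the difference. It was from 0.206 to 0.244 without any 1 of the MII libraries.

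Xrn1, the exonuclease that follows decapping, had 4.08 and 10.8 FPKM in the WT_FGO libraries, 17.5 and 15.0 FPKM in the WT_MII libraries, and 12.8 and 23.0 FPKM in the Treat_MII libraries. Both WT_FGO libraries, with 2 and 6 reads, lay below all MII libraries. The difference between WT_MII and WT_FGO was 1.15 ± 0.76 (SE) on the log2 scale and was not called (limma adjusted p = 0.484). Its 95% interval, -0.71 to 3.02, held both no difference and a difference as large as that of Upf1.

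Lsm1 passed the test with very few reads. No read fell on it in WT_FGO, and its level was 44.0 and 21 FPKM in WT_MII, from 3 and 2 reads, and 21.9 and 52.7 FPKM in Treat_MII, from 3 and 6 reads. All MII libraries had reads and no fully grown library had any. In its short coding sequence of 413 bases a count of 0 still allowed 77.0 and 67.7 FPKM in WT_FGO, more than the WT_MII mean of 32.5 ± 16.3 FPKM (SD, n = 2), so no fold is given. limma called it (adjusted p = 0.0253), the test of recovered reads by voom did not (limma-voom adjusted p = 0.278), and leaving out any 1 of the 6 libraries ended the call (limma adjusted p from 0.0752 to 0.121). In addition, 15.5% of its coding words also occur in transcripts of other annotated genes, among them Gm15209, so some of its reads could be shared.

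The AU-element binding proteins were read only sporadically. Zfp36l2, which female fertility in the mouse depends on, had 0 and 25.7 FPKM in fully grown oocytes, 12.5 and 5.97 FPKM in control MII oocytes, and 0 and 2.5 FPKM in treated MII oocytes. Zfp36l1 had 0 and 7.92 FPKM in fully grown oocytes, 25.8 and 0 FPKM in control MII oocytes, and 0 FPKM in both Treat_MII libraries. Groups overlapped for both genes between WT_FGO and WT_MII. They had 10 and 6 reads in all. Of the coding words of Zfp36l1, 24.6% also occur in transcripts of other annotated genes, among them the pseudogene Zfp36l1-ps.

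Among the 10 members, limma called 3 higher in WT_MII than in WT_FGO (Dcp1a, Lsm1 and Edc4), where 3.67% of all 15127 tested genes were called higher, and it called 0 lower, where 3.09% of all were. At an unadjusted p under 0.05 there were 4 members, and 3443 of all 15127 tested genes. voom on the recovered reads also called 3 higher (Dcp1a, Edc4 and Upf1), against 5.52% of 14544 genes. It called 0 lower, a count that is no result, since no share of all genes is given for that direction. The WT_MII libraries were both above the WT_FGO libraries for 5 members (15.3% of all tested genes) and both below for Dcp1b alone (25.8% of all). The median difference of the members was 1.37 on the log2 scale, and that of all tested genes was -0.44. With the 2 members that had no read in WT_FGO (Dcp2 and Lsm1) set to no difference, since no fold can be given for them, the median of the members was 0.85. The median of all tested genes was not recomputed in this way, so 0.85 cannot be set against -0.44. The 6 thinly read members contribute to this median, and 4 members had at least 60 reads. Without either WT_FGO library Lsm1 lost its call. A single fully grown library is left there, so the count of called members is no support. The count fell to 1 (Dcp1a) without either WT_MII library and to 0 without either Treat_MII library.

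Treatment was compared by setting Treat_MII against WT_MII. For Dcp1a the values were 659 and 583 FPKM in Treat_MII, from 398 and 293 reads, against 994 and 978 FPKM in WT_MII. Both treated libraries lay below both controls, and the counting intervals of the treated libraries (596 to 727 and 518 to 654 FPKM) did not reach those of the controls (884 to 1113 and 886 to 1077 FPKM). The Treat_MII mean was 621 ± 53.6 FPKM (SD, n = 2), and the control level was 1.59 times as high. The difference was -0.67 ± 0.40 (SE) on the log2 scale with a 95% interval of -1.64 to 0.30, which did not pass limma's test on FPKM (adjusted p = 0.931). voom on the recovered reads gave -0.66 ± 0.18 (SE) and called it (limma-voom adjusted p = 0.0249). That SE and p-value rest on a spread pooled over all genes, without weight on the spread between the libraries of Dcp1a itself. The sign and size held under every alternative fit, from -0.77 to -0.58. Even so, Dcp1a in Treat_MII stayed far above the fully grown level, by 4.57 ± 0.40 (SE) on the log2 scale (limma adjusted p = 0.00389), and by 5.07 without the second WT_FGO library. The treated level was 23.3 times the WT_FGO mean, where the control level was 37.0 times it, and both ratios share the WT_FGO libraries. limma's call of Treat_MII against WT_FGO was lost when either WT_MII library (adjusted p = 0.0664 and 0.0691) or the first or second Treat_MII library (0.0909 and 0.0801) was left out.

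Edc4 and Upf1, also well read, had small estimated differences between treated and control MII oocytes, with wide limma intervals. For Edc4 the difference was -0.05 on the log2 scale with a 95% interval of -0.84 to 0.73 (limma adjusted p = 1). For Upf1 it was -0.08 with an interval of -1.44 to 1.27 (limma adjusted p = 1). The read-based intervals of voom, which pooled the spread over all genes, were narrower, -0.48 to 0.38 for Edc4 and -0.55 to 0.35 for Upf1. For these genes the groups overlapped, and differences within the intervals were not detectable with 2 libraries per group. Xrn1 differed by 0.08 (interval -1.78 to 1.94). Lsm1, with only 5 reads in WT_MII and 9 in Treat_MII, differed by 0.16 (interval -1.87 to 2.19). These intervals are too wide to show that either gene was unchanged.

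The thinly read members gave wide intervals in the treatment comparison. Dcp2 was higher in both treated libraries than in both controls, with a difference of 2.06 on the log2 scale, an interval of -1.19 to 5.32 and 10 reads against 2. Zfp36l2 was lower in both treated libraries, with a difference of -2.38 and 1 read against 5. Neither passed (limma adjusted p = 0.931 for each). Zfp36l1, at 5 reads in the first WT_MII library and none in Treat_MII, and Edc3 and Dcp1b overlapped between the groups.

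limma called 0 of the 10 members in either direction between Treat_MII and WT_MII, and 0% of all tested genes higher and 0% lower. No member had an unadjusted p under 0.05, which 882 of all 15127 tested genes had. With voom, Dcp1a was the 1 member called lower, where 0.688% of 14544 genes were called lower and 0.447% higher. The groups did not overlap for Dcp2 in the higher direction (16.2% of all tested genes) and for Dcp1a and Zfp36l2 in the lower (15.6% of all). The median difference of the members was -0.07 on the log2 scale, and that of all genes was 0.

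Against WT_FGO, the treated oocytes showed Dcp1a and Lsm1 called higher by limma, 2 of 10 members, where 2.86% of all tested genes were called higher and 1% lower. Edc4 (1.54 ± 0.32, SE, limma adjusted p = 0.0645) and Upf1 (2.39 ± 0.56, SE, limma adjusted p = 0.0820) missed the threshold. voom called Dcp1a, Edc4 and Upf1, where it called 5.84% of genes higher. Both Treat_MII libraries were above both WT_FGO libraries for 6 members (16.6% of all tested genes) and below both for Dcp1b (28.9% of all). Lsm1 had 9 reads against 0 here, and its call was lost on leaving out any 1 of the 6 libraries (limma adjusted p from 0.0788 to 0.187). All member calls were lost without any 1 MII library. Without either WT_FGO library a single fully grown library is left, so the calls there are no support. The medians were 1.39 for the members and -0.53 for all tested genes on the log2 scale, and 0 for the members once the 3 with no read in a group were set to no difference. The median of all tested genes was not recomputed in that way, so the 0 cannot be set against -0.53. This comparison shares its WT_FGO libraries with the maturation comparison and its Treat_MII libraries with the treatment comparison.

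**Figure D2:**
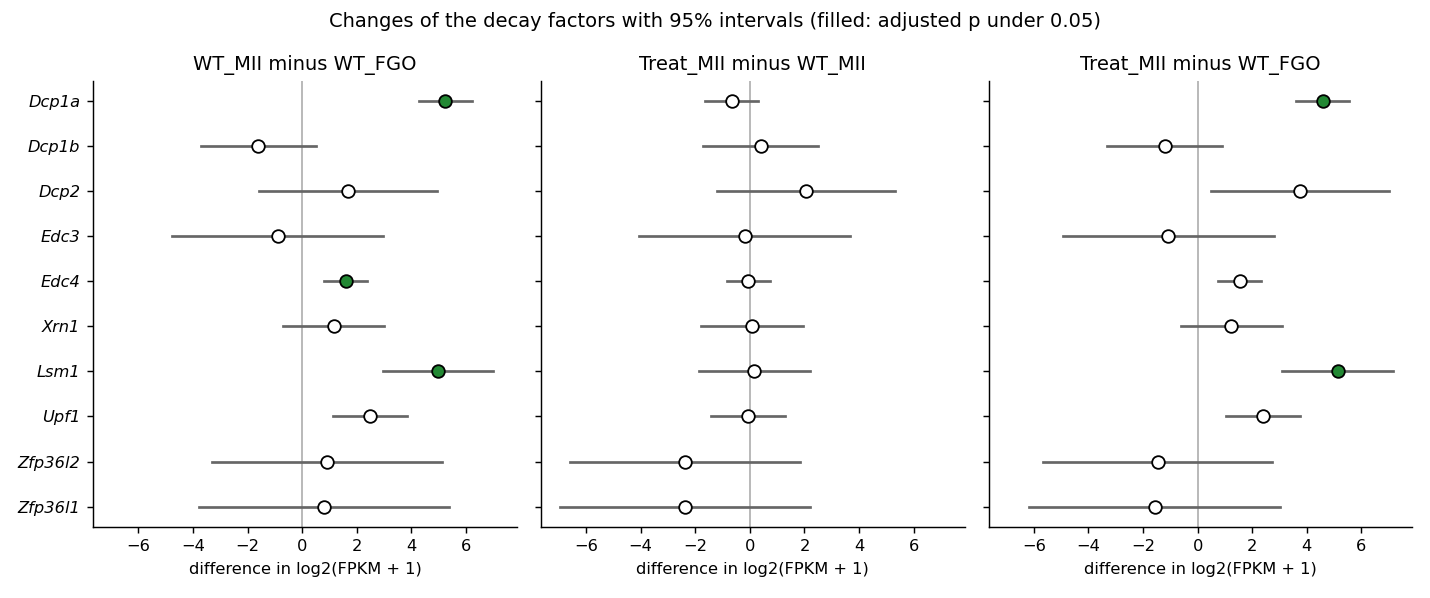
Difference in log2(FPKM + 1) between groups (x axis) for the 10 decay factors (y axis), in the 3 comparisons. Points are limma estimates, lines their 95% intervals and filled points passed an adjusted p under 0.05: Dcp1a lies at 5.24 and 4.57 against WT_FGO and at -0.67 between Treat_MII and WT_MII, while Edc3, Dcp2, Zfp36l2 and Zfp36l1 have intervals several log2 units wide.

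The order of the members changed with maturation. In WT_FGO the mean levels per coding length ran from Edc4 (71.5 ± 8.14 FPKM, SD, n = 2) through Upf1 (51.3 ± 37.0), Dcp1a (26.6 ± 13.0) and Dcp1b (23.7 ± 18.3) to Dcp2 and Lsm1 at 0. No neighbours in this order differed beyond their spread. In WT_MII Dcp1a stood first at 986 ± 10.9 FPKM, followed by Upf1 (251 ± 21.5) and Edc4 (217 ± 17.5), whose ranges of 1 SD overlapped, and then, far lower, by Lsm1 (32.5 ± 16.3) and Xrn1 (16.3 ± 1.77), whose ranges also overlapped. In Treat_MII the first 5 places were held by the same genes in the same order, with Dcp1a at 621 ± 53.6, Upf1 at 236 ± 11.3 and Edc4 at 209 ± 10.1 FPKM, where Upf1 and Edc4 were further apart than 1 SD on each side.

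As a share of all footprint reads, the 10 genes took 0.0530% and 0.0746% in WT_FGO, 0.376% and 0.366% in WT_MII, and 0.294% and 0.298% in Treat_MII. Dcp1a alone made up 6.0% and 8.75% of these member reads in WT_FGO, 48.1% and 48.8% in WT_MII, and 40.8% and 35.7% in Treat_MII. The share was higher in all MII libraries than in fully grown oocytes, and the treated libraries lay between the other groups, as they did for most oocyte markers. Reads counted without regard to length favour genes with long coding sequences.

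**Figure D3:**
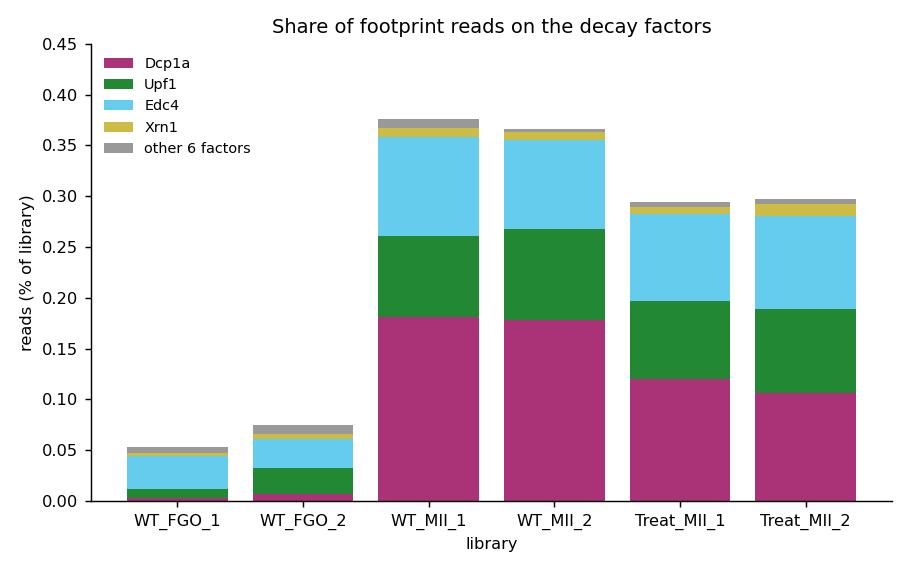
Reads on the decay factors as a percentage of all reads (y axis, from 0) in each library (x axis), stacked by gene. The total is 0.0530% and 0.0746% in WT_FGO, 0.376% and 0.366% in WT_MII, and 0.294% and 0.298% in Treat_MII, where the Dcp1a segment is smaller than in WT_MII.

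The wider decay machinery was taken as 58 other genes in 4 lists. Of 56 tested, limma called 3 higher (Xrn2, Dis3l2 and Lsm14a) and 3 lower (Eif4enif1, Exosc1 and Exosc5), counts that are close to the 3.67% and 3.09% of all genes given above and are no result about the lists. The median difference was -0.09 on the log2 scale (0 with the 12 genes that had no read in a group at their bound), with 27 genes higher and 29 lower. The count of 6 called list genes became 8 without the first and 10 without the second WT_FGO library, 2 without either WT_MII library and 0 without either Treat_MII library. Called genes thus lay in both directions, and the medians of single lists ran from -0.64 for the decapping partners to 0.40 for the AU-rich element binding proteins.

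Among the decapping partners, limma called 1 of 16 tested genes higher and 1 lower, where it called 3.67% and 3.09% of all tested genes. By sign, 7 were higher and 9 lower, against 6302 and 8825 of all 15127 tested genes. Lsm14a, an RNA-binding component of cytoplasmic mRNA granules, rose from 28.7 and 75.8 FPKM in WT_FGO to 279 and 337 in WT_MII (2.69 ± 0.52, SE, limma adjusted p = 0.0376). Eif4enif1, which binds the cap-binding protein eIF4E and keeps mRNA silent, fell from 151 and 294 FPKM to 12.3 and 17.6 FPKM, a log2 difference of -3.75 ± 0.53 (SE, limma adjusted p = 0.0153). Both WT_MII libraries lay outside the WT_FGO values for each gene. Other genes were named for size (a mean of at least 10 FPKM and no overlap). Those that did not pass limma's test differed by 3.0 for Patl1, -5.44 for Lsm6, -3.25 for Patl2 and -2.23 for Lsm2 (limma adjusted p from 0.0641 to 0.247). voom called Lsm6 (limma-voom adjusted p = 0.0038), Patl2 (0.0205) and Patl1 (0.0332), and did not call Lsm2 (0.0811). For voom calls in the lower direction, as of Lsm6 and Patl2, no share of all genes is given.

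Among the exonucleases and exosome genes, limma called 2 of 22 higher and 2 lower, where it called 3.67% and 3.09% of all tested genes. By sign, 10 were higher and 12 lower. Xrn2, the nuclear counterpart of Xrn1, had 0 and 13.1 FPKM in WT_FGO and 283 and 241 FPKM in WT_MII, a rise of 6.13 ± 1.17 (SE, limma adjusted p = 0.0370). Its level in WT_MII was far above that of Xrn1. Dis3l2, a 3′ to 5′ exonuclease of uridylated RNA, went from no read in WT_FGO to 18.3 and 19.6 FPKM, which is at least 1.68-fold higher than the mean FPKM that 3 reads per library would give (limma adjusted p = 0.0410). The exosome subunits Exosc1 (-3.12, limma adjusted p = 0.0175) and Exosc5 (-1.99, limma adjusted p = 0.0434) fell. Exosc3 (4.00) and the exonuclease Eri1 (3.49) were higher without passing limma's test (adjusted p = 0.106 and 0.187). voom called Exosc3 (limma-voom adjusted p = 0.0385) and did not call Eri1 (0.0829). None of the 11 nonsense-mediated decay genes and none of the 7 tested AU-rich element genes was called by limma. At an unadjusted p under 0.05 were 3443 of all 15127 tested genes, and 2 and 1 of these listed genes. voom called 1 of them, Smg8, named here after its value was seen, and Tial1 differed by 3.30 (limma adjusted p = 0.271).

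**Figure D4:**
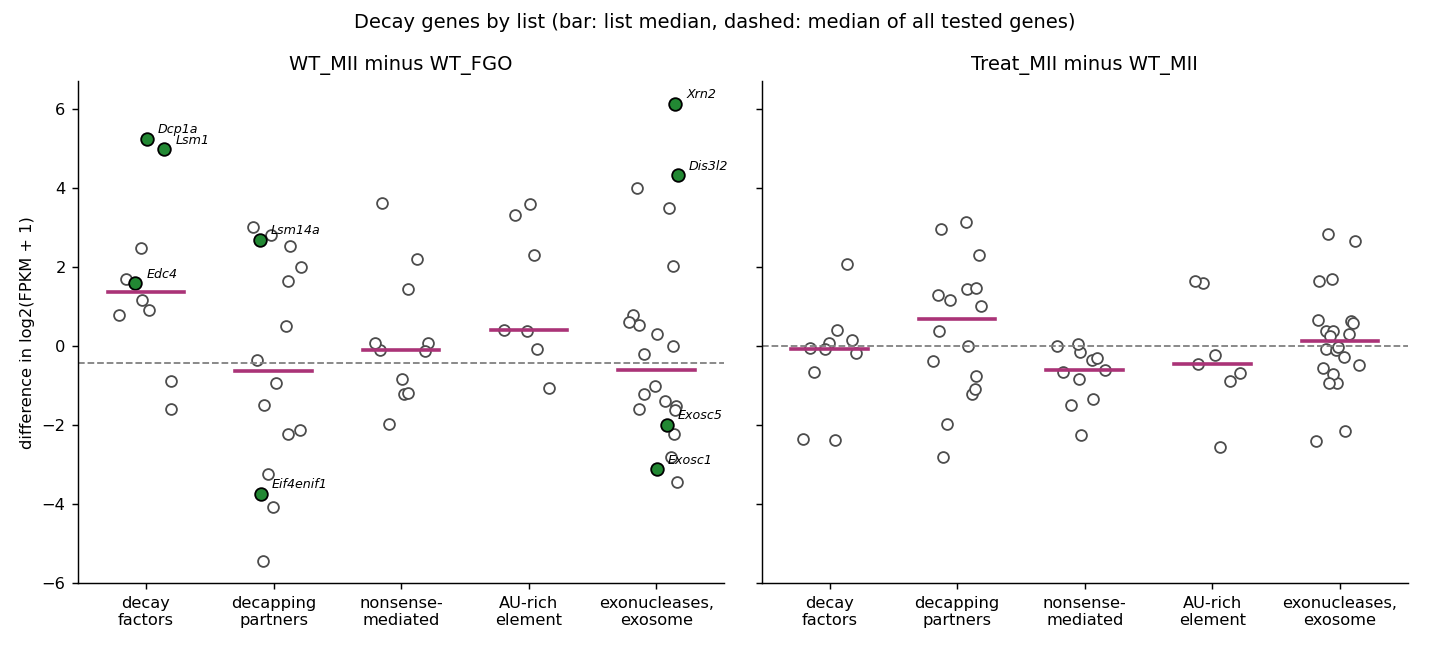
Difference in log2(FPKM + 1) (y axis) of the 10 decay factors and the tested genes of 4 lists (x axis) for WT_MII minus WT_FGO and Treat_MII minus WT_MII. Each point is a gene, filled where limma's adjusted p was under 0.05; bars are list medians and the dashed line is the median of all tested genes (-0.44 and 0), and called genes lie on both sides of 0 on maturation while none is called under treatment.

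Under treatment, limma called none of the 56 list genes and voom called 0. An unadjusted p under 0.05 was found for 3 of them, and for 882 of all 15127 tested genes. Without the first WT_MII library limma called 2 and without the second 1. The median difference was -0.13 on the log2 scale (-0.01 with 8 genes at their bound). Elavl2, an RNA-binding protein of the AU-rich element list, had 60.9 and 79.8 FPKM in control and 235 and 191 FPKM in treated MII oocytes (1.59 ± 0.50, SE, limma adjusted p = 0.803). Its 4 MII libraries did not overlap. Of the 56 list genes, the groups did not overlap for 13 in the higher direction (16.2% of all tested genes) and 15 in the lower (15.6% of all). Among those with a mean of at least 10 FPKM, the other 4 of the 5 largest differences above 0 were 2.95 for Patl2, 2.83 for Wdr61, 1.63 for Hnrnpd and 1.46 for the helicase Ddx6. The 5 largest below 0 were -1.22 for Patl1, -1.09 for Lsm14b, -0.89 for Elavl1, -0.71 for Skiv2l and -0.66 for Smg5. Xrn2, at 249 and 248 FPKM in Treat_MII, and Eif4enif1, at 40.9 and 34.5 FPKM, were nearer to the control MII level than to the fully grown level. Against WT_FGO, the treated oocytes had 2 list genes called, Xrn2 higher (6.05, limma adjusted p = 0.04998) and Exosc1 lower (-2.73, limma adjusted p = 0.0345). That count became 4 without the first and 7 without the second WT_FGO library, 0 without either WT_MII library, and 0 without the first and 1 without the second Treat_MII library. Of the named genes that did not pass limma's test in that comparison, Lsm5, Exosc3, Eri1 and Tial1 were higher (from 2.83 to 4.83). Exosc9, Eif4enif1, Lsm6 and Lsm4 were lower (from -3.76 to -2.28).

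Because the treatment concerns rG4s, the members were searched for the G-quadruplex motif, here 4 runs of 3 or more G joined by loops of 1 to 7 bases on the sense strand. It occurred in the annotated 5′-UTR of Dcp1b, Lsm1 and Zfp36l2, 3 of 10 members against 7.01% of 14806 tested genes. No member held it in the coding sequence (4.51% of genes). It occurred in the 3′-UTR of Dcp2, Edc3 and Zfp36l1, 3 of 10 against 10.5% of genes. Each of the 6 members with 21 reads or fewer thus held a motif in a UTR. Dcp1a, Edc4, Upf1 and Xrn1 held none in any part, with a 5′-UTR of only 10 annotated bases in Dcp1a. This split goes by reads, which favour long coding sequences. By level it did not hold, since the mean FPKM over all libraries was 23.3 for Lsm1 and 13.9 for Xrn1. The share of all genes with a motif in either UTR is not given, so the split is no result about the members. Dcp1a was the member that voom called lower under treatment. The 5′-UTR of Zfp36l2 was 253 bases and that of Lsm1 384 bases, and 3′-UTRs ranged from 218 bases in Xrn1 to 7240 bases in Dcp2. Longer regions have more room for a motif, a motif is not a measured rG4, and its part in the levels was not tested.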

How the data were processed

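The authors deposited FPKM values per gene for the 6 libraries. Per the labels, the submitters' processing notes name cutadapt 1.14, Bowtie2 2.2.2, STAR 2.5.3a and mm10; the counting program, annotation and treatment of molecular identifiers are not given in the sources used here. No spike-in scaling is stated, so values are relative to each library's total. Of 22442 entries, 26 shared a gene name with another and were dropped.

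Reads were recovered as FPKM times coding exon length (GENCODE M21, GRCm38) times a constant per library, and 21593 of 21937 genes with a length (98.4%) gave whole reads within 0.02. Their exact 95% binomial (Clopper-Pearson) intervals and the limit for a count of 0 (3 reads) cover counting error only.

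The 15127 genes whose mean reached 1 FPKM were tested on log2(FPKM + 1) by limma 3.58.1 in R 4.3.3 (lmFit, eBayes with trend) with all 6 libraries in 1 fit of 3 groups, Benjamini-Hochberg adjusted over all tested genes and called under 0.05. The scale understates changes of low genes. The labels give separate libraries and not separate mice, so limma p-values measure the spread between libraries, which may be technical. The voom fit pooled the spread over all genes, so its p-values and intervals do not reflect a gene's own spread between libraries. Replicate numbers were not treated as pairs. The fit was tested on simulated data.

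Members, lists and tests were chosen with earlier results of these data known. From the lists were named every called gene and, per comparison, up to 5 differences each way among non-overlapping genes whose mean reached 10 FPKM. Alternatives were a pseudocount of 0.1, no filter, a 5 FPKM minimum, median centring, quantile normalization, a replicate term, only the compared groups, voom on recovered reads, leaving out each library and, added after the data were seen, genes with at least 60 reads.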

Additional observations from a re-analysis of the deposited data

How the results depend on the processing

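The count of members called between WT_MII and WT_FGO (3) became 0 when only these groups were fitted and ran from 0 to 3 on leaving out 1 library; that of list genes (6) became 0 in the compared groups alone, 14 with voom, and 0 to 10 without 1 library. Between Treat_MII and WT_MII, the count of members (0) became 1 with voom and stayed 0 without any 1 library, and that of list genes (0) ran from 0 to 2. Between Treat_MII and WT_FGO, members called (2) became 4 on centring and on quantile normalization, 1 with the replicate block and 0 in the compared groups alone (0 to 3 without 1 library). List genes there (2) became 1 with a pseudocount of 0.1, no filter or the replicate block, 4 on centring, 5 on quantile normalization, 0 in the compared groups alone, 15 with voom and 10 among genes with at least 60 reads (0 to 7 without 1 library). The voom counts of list genes take both directions. Of all genes, voom called 5.52% higher on maturation and 5.84% higher between Treat_MII and WT_FGO. Its shares called lower in these comparisons are not given. Shares of all genes called are not given for the other settings, so these counts are no result about the members or lists. The replicate block left 2 members called on maturation, since Edc4 had a limma adjusted p of 0.0817; same-numbered libraries correlated at 0.0342, 0.0176 and 0.0189 in their deviations from group means (2706 genes), and the labels name no shared batch. Signs turned for thinly read or near-zero differences, given on the log2 scale: with voom Zfp36l2 (-0.0365) and Zfp36l1 (-0.0386) on maturation, on centring Edc4 (0.0204) under treatment. Leaving out 1 library gave -2.76 to 0.97 for Edc3, -1.46 to 3.28 for Zfp36l2 and -1.58 to 3.16 for Zfp36l1 on maturation, -1.15 to 0.79 for Edc3, -0.14 to 0.0271 for Edc4, -0.32 to 0.48 for Xrn1, -0.46 to 0.77 for Lsm1 and -0.17 to 0.0039 for Upf1 under treatment, and -2.94 to 0.79 for Edc3 and -3.83 to 0.90 for Zfp36l2 between Treat_MII and WT_FGO. Dcp1a kept its sign in all 3 comparisons under every alternative. The causes of these shifts were not tested. Depth limits Dcp1b, Dcp2, Edc3, Lsm1, Zfp36l2 and Zfp36l1, at 4 to 21 reads each.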
